A study of Mus musculus with 8 samples.

Results

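ORR1 elements are long terminal repeat (LTR) retrotransposons of the mouse genome, and their chromatin accessibility was described here in primary lung fibroblasts. They were taken from a table of open chromatin regions and annotated repeats as all copies of class LTR and family ERVL-MaLR whose subfamily name starts with ORR1. This gave 206555 of 2968871 retrotransposon copies (6.96%), which cover 58.2 Mb or 5.41% of the retrotransposon length. They fall into 14 LTR subfamilies (139296 copies) and 4 internal-part subfamilies (67259 copies), whose names end in "-int".

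ORR1 belongs to the mammalian apparent LTR retrotransposons (MaLR), which carry no complete set of genes of their own and are thought to have been copied with the proteins of ERVL viruses. An intact element is an internal part between a pair of LTRs, and recombination between the LTRs leaves a single LTR behind, so LTR copies outnumber full elements. The LTR holds the promoter of the element, and LTRs of ORR1 and of the related MT elements are known to start transcripts of neighbouring genes in mouse oocytes and early embryos. Subfamily letters run from A, the youngest in the mouse lineage, to G, the oldest.

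Accessibility was measured by ATAC-seq, in which a transposase cuts exposed nuclear DNA and the cut ends are sequenced. Per the labels, 4 mice lacked cGAS (genotype cGAS KO, here KO) and 4 were wild type (WT). Each genotype had 2 females and 2 males, and each mouse gave 1 library. All 8 cultures were kept at 5% CO2 and 5% O2. cGAS is the sensor of cytosolic DNA that starts the type I interferon response, and the series asked how its loss changes chromatin accessibility. The age and strain of the mice and the design of the knockout allele were not given in the sources used here, and the fibroblast identity and the Cgas locus were not checked, since no gene is assigned to a region. The libraries are named by genotype, sex label and number (KO F1, WT M2).

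The table held 43.2 to 72.9 M counts per library, of which retrotransposons took 13.3 to 16.4 M (20.4% to 30.8%) and ORR1 copies 0.804 to 0.999 M. The ORR1 copies themselves bear on 1 label. On the Y chromosome, which holds 8728 ORR1 copies, the female-labelled libraries KO F1, WT F1 and WT F2 had 97.8, 96.0 and 59.8 counts, while the library labelled KO F2 had 4878. The male-labelled libraries had 6224 (KO M1), 8402 (KO M2), 4348 (WT M1) and 8142 (WT M2). On the X chromosome (10180 ORR1 copies), count density relative to autosomal ORR1 copies was 0.625, 0.595 and 0.506 in KO F1, WT F1 and WT F2. It was 0.404 in the library labelled KO F2 and 0.341, 0.408, 0.308 and 0.354 in KO M1, KO M2, WT M1 and WT M2. Over X and over the whole of Y the library labelled KO F2 lay within the range of the male-labelled libraries. In the first 2 Mb of Y (74 ORR1 copies), a limit chosen after the counts had been seen, it lay between the sets, with 116.5 counts. The male-labelled libraries had 173 to 232.5 there, and KO F1, WT F1 and WT F2 had 8 to 23. Sex was kept as labelled in every fit, and each genotype comparison was repeated without this library.

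**Figure D1:**
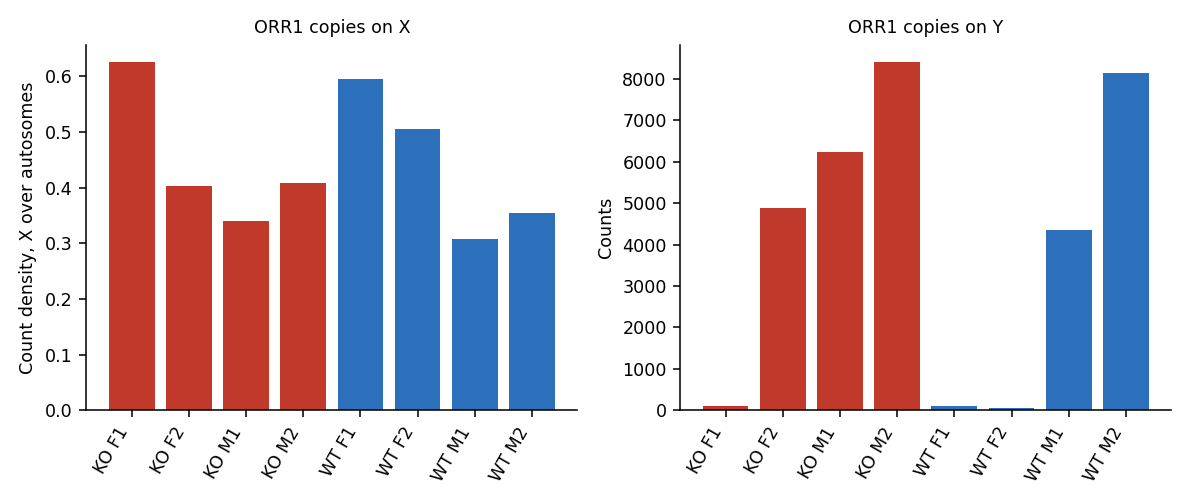
ORR1 copies on the sex chromosomes. Left, bars give the count density (counts per base) of ORR1 copies on X divided by that of autosomal ORR1 copies; right, bars give the counts on Y (red KO, blue WT). The library labelled KO F2 has 4878 Y counts, against 59.8 to 97.8 in the other 3 female-labelled libraries.

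ORR1 copies were short, with a median length of 278 bp over all copies. Median lengths of the LTR subfamilies ran from 250 bp (ORR1G) to 360 bp (ORR1B1). The internal parts of ORR1A1, ORR1A3 and ORR1B1 were mostly fragments, with medians of 102, 88 and 86 bp, while ORR1D-int had a median of 751 bp. ORR1B1-int alone contributed 54086 of the 67259 internal copies. In the annotation 22% of the copies joined several separate segments under a single name, and of the 6343 copies of 1000 bp or more (3.07% of all) 96.2% did so. A median ORR1 copy held 2.38 counts per library and 4.63% of the copies held no count in any library. Most results below therefore sum the copies of a subfamily.

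Count density rose from the young to the old ORR1 LTRs. Density is the summed counts of a subfamily divided by its summed length, given relative to all retrotransposon copies of the same library, so that 1 is the retrotransposon average. Over the 8 libraries it was 0.790 ± 0.124 for ORR1A0 (SD, n = 8, here and for the other densities), 0.838 ± 0.077 for ORR1A1, 1.00 ± 0.047 for ORR1A2, 0.967 ± 0.060 for ORR1A3 and 0.918 ± 0.055 for ORR1A4. ORR1B1 and ORR1B2 had 1.02 ± 0.090 and 1.07 ± 0.091, and ORR1C1 and ORR1C2 had 1.17 ± 0.096 and 1.18 ± 0.087. The D subfamilies had 0.984 ± 0.026 (ORR1D1) and 1.19 ± 0.051 (ORR1D2). ORR1E, ORR1F and ORR1G, the oldest, had the 3 highest values, 1.47 ± 0.098, 1.48 ± 0.107 and 1.46 ± 0.090.

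**Figure D2:**
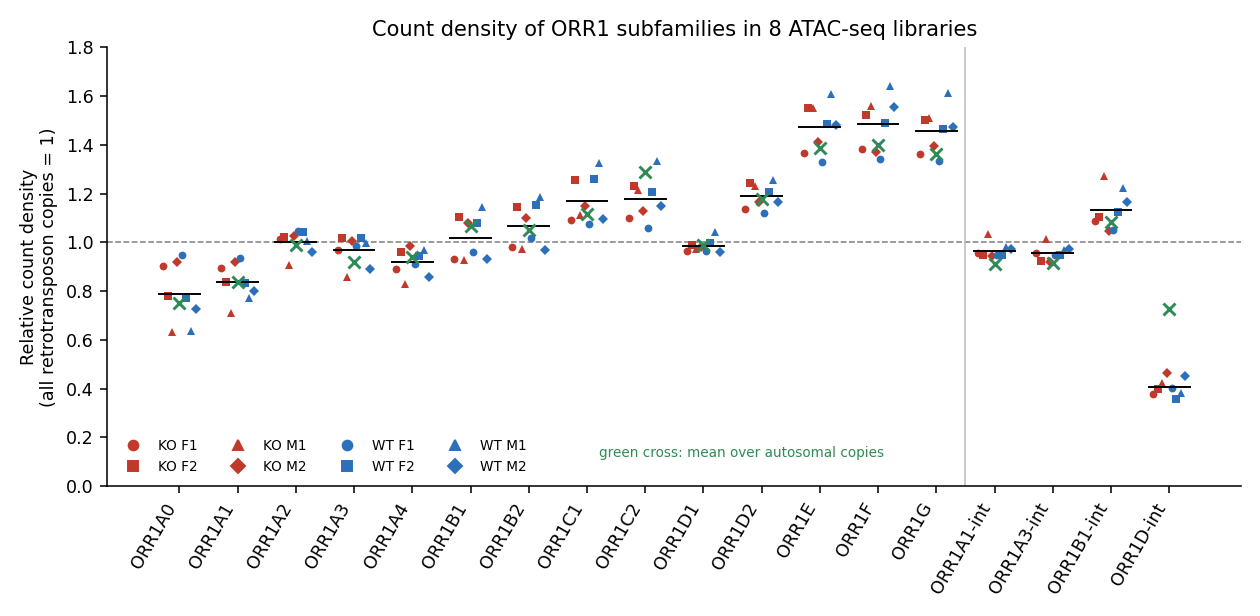
Count density of the 18 ORR1 subfamilies relative to all retrotransposon copies of the same library (dashed line, 1). Points are the 8 libraries (red KO, blue WT), black bars their mean, and green crosses the mean when only autosomal copies are used. LTR subfamilies are left of the vertical line. ORR1E, ORR1F and ORR1G lie above 1.3 in every library, and ORR1D-int rises from 0.407 to 0.727 when only autosomal copies are used.

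For ORR1E the relative density was 1.37, 1.55, 1.55 and 1.41 in KO F1, F2, M1 and M2, and 1.33, 1.49, 1.61 and 1.48 in WT F1, F2, M1 and M2. For ORR1A0 it was 0.902, 0.779, 0.633 and 0.921 in the same KO libraries and 0.949, 0.773, 0.638 and 0.727 in the WT libraries. KO and WT values overlapped in both. ORR1A0 was highest in WT F1, KO M2 and KO F1 and lowest in KO M1 and WT M1, while ORR1E was lowest in WT F1 and highest in WT M1. The retrotransposon share of the table was 30.4%, 30.8% and 26.2% in WT F1, KO M2 and KO F1 and 20.8% and 20.4% in KO M1 and WT M1, and its part in these values was not tested.

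The old and young LTRs were compared within each library. The summed density of ORR1E, ORR1F and ORR1G exceeded that of the 5 ORR1A LTR subfamilies 1.57-fold, a log2 ratio of 0.66 ± 0.16 (SD, n = 8). It was positive in 8 of 8 libraries, from 0.44 in WT F1 to 0.90 in KO M1 (exact two-sided sign-flip permutation test, p = 0.0078, the smallest that 8 libraries allow). The E to G LTRs were also the densest in the order above, from the same libraries. This p is therefore not independent of that order. Among copies that overlap no open region the log2 ratio was 0.33 ± 0.11, and among autosomal copies 0.58 ± 0.16, again positive in all 8 libraries. When the median over single copies of at least 200 bp was used in place of sums, the log2 ratio was 0.06. The median copy of the E to G LTRs had 0.194 counts per kb and per M table counts and that of the A LTRs 0.186.

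The lineages differed more in their densest copies than in the typical copy. Among copies of at least 200 bp, the median density of the 14 LTR subfamilies stayed between 0.156 (ORR1D1) and 0.198 (ORR1A2) counts per kb and per M table counts. The 99th percentile ran from 0.705 in ORR1A0 and 0.929 in ORR1A1 through 1.64 in ORR1B1 and 2.00 in ORR1C1 to 2.98 in ORR1E, 2.89 in ORR1F and 2.84 in ORR1G. Over all ORR1 copies of that length it was 2.07, against 2.09 over all retrotransposon copies, 2.18 over MT elements and 4.13 over MLT1, an older MaLR group.

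Overlap with open regions was also most frequent in the E to G LTRs. An open region is a peak of cut sites, and 8805 ORR1 copies (4.26%) shared at least 1 base with one, against 4.2% of all retrotransposon copies, 4.70% of MT and 6.98% of MLT1 copies. The share was 1.09% in ORR1A0 (20 of 1842 copies), 1.75% in ORR1A1, 2.72% in ORR1A2, 3.06% in ORR1B1, 4.61% in ORR1C1 and 5.00% in ORR1C2. It reached 6.48% in ORR1E (1277 of 19708), 6.55% in ORR1F (1166 of 17798) and 6.10% in ORR1G (344 of 5642). ORR1D1, with 3.04%, again lay below ORR1D2, with 4.82%. Elsewhere the order was not that of density, since ORR1C2 lay above ORR1D2, ORR1B1 above ORR1B2 (2.95%) and ORR1D-int (1.48%) above ORR1A0. Copies that overlapped an open region held 2.84% of the counts of ORR1A0, 31.7% of those of ORR1E and 32.5% of those of ORR1F. When at least 50% of the copy had to lie in open regions, 2.66% of the ORR1 copies remained, from 0.380% in ORR1A0 to 4.50% in ORR1E. These shares describe the peak list as deposited and were not tested.

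**Figure D3:**
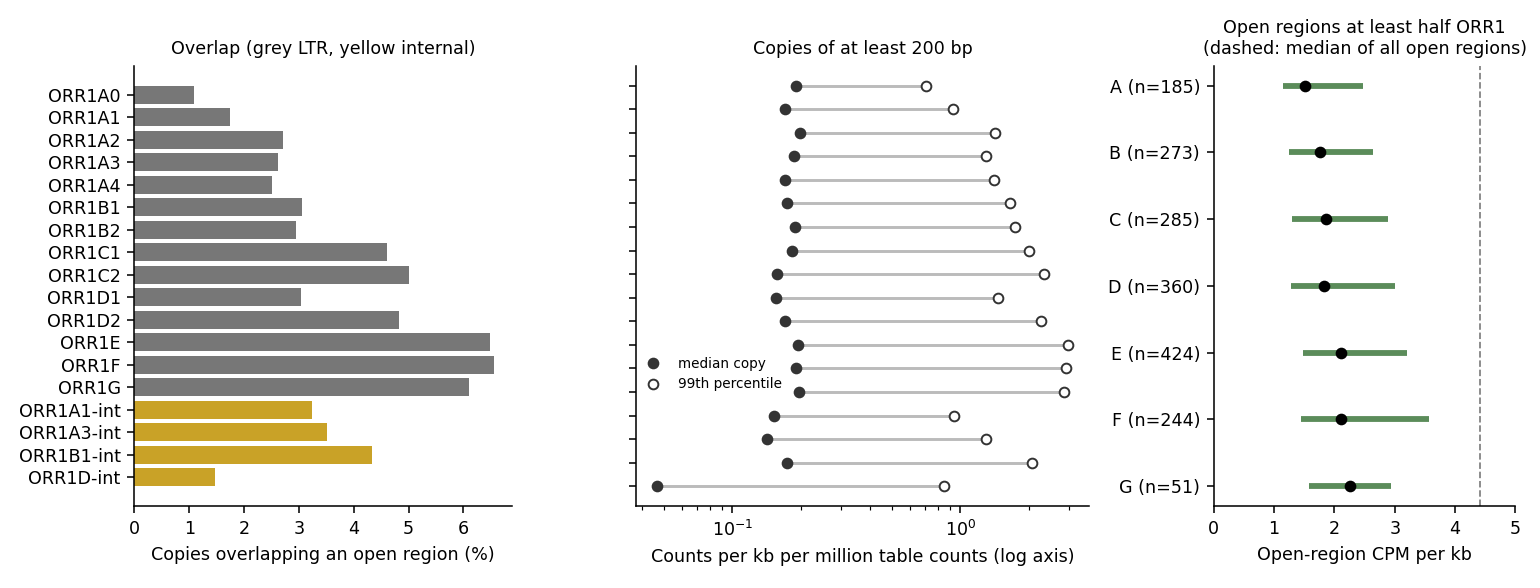
Open chromatin at ORR1 copies. Left, share of copies that overlap an open region by at least 1 base; centre, median (filled) and 99th percentile (open) of counts per kb and per M table counts over copies of at least 200 bp, on a log axis, in the same row order; right, median (dot) and quartiles (bar) of CPM per kb of open regions that lie at least 50% in ORR1, by lineage. The medians of the LTR subfamilies stay within 0.156 to 0.198, while the 99th percentile rises from 0.705 (ORR1A0) to 2.98 (ORR1E).

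Of the 17 pairs of subfamilies that follow each other in order of density, 3 differed beyond the spread over libraries (exact two-sided sign-flip permutation test, Benjamini-Hochberg adjusted over the 17 pairs, p = 0.0443 each, higher in 8 of 8 libraries). ORR1G lay above ORR1D2 by a log2 ratio of 0.29 ± 0.04. ORR1B2 lay above ORR1B1 by 0.06 ± 0.02. ORR1A0 lay above ORR1D-int, the lowest of all, by 0.95 ± 0.25. The other neighbours, among them the order within E to G and within the A LTRs, could not be told apart by this test. Of the 17 pairs, 5 had an unadjusted p under 0.05. The pairs and their direction were taken from the same libraries, so these p are not independent of the order. Among copies outside open regions the 3 named pairs kept log2 ratios of 0.23, 0.07 and 1.08, each positive in 8 of 8 libraries.

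The Y chromosome bears on 2 of these 3 results. Y holds 37.6% of the ORR1D-int copies (280 of 744) and 48.7% of their length, 15.0% of the ORR1C2 copies, 13.2% of the ORR1B1 copies and 6.70% of the ORR1B2 copies, against 0.869% of ORR1A0. The Y copies of ORR1D-int had a median length of 758 bp and the autosomal ones 308.5 bp. With autosomal copies alone, relative to autosomal retrotransposons, ORR1D-int had a density of 0.727 ± 0.039 and ORR1A0 0.750 ± 0.120, a log2 ratio of 0.03 ± 0.19 (positive in 5 of 8 libraries, exact permutation p = 0.633). ORR1B1 then lay above ORR1B2 in 8 of 8 libraries, by 1.07 against 1.05, the reverse of the order over all copies. ORR1C2 rose to 1.29 ± 0.089, above ORR1C1 (1.12 ± 0.090) and ORR1D2 (1.18 ± 0.051). ORR1G stayed above ORR1D2 by a log2 ratio of 0.21 ± 0.03. With autosomal copies alone, 7 of 17 neighbouring pairs passed, and the E to G subfamilies remained the 3 highest, at 1.36 to 1.40. This repeat was chosen after the Y share had been seen.

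LTR copies were somewhat denser than internal parts. Summed over subfamilies, LTR copies had 1.08 times the density of internal parts, a log2 ratio of 0.12 ± 0.09 (SD, n = 8). It was 0.10, 0.22, -0.06 and 0.21 in KO F1, F2, M1 and M2 and 0.14, 0.17, 0.14 and 0.04 in WT F1, F2, M1 and M2. KO M1 was the only library with denser internal parts (exact two-sided sign-flip permutation test, p = 0.0234). By medians over copies of at least 200 bp the log2 ratio was 0.34, from 0.180 and 0.142 counts per kb and per M table counts. Few internal copies were that long, with 180 of 2402 in ORR1A1-int, 771 of 10027 in ORR1A3-int and 1456 of 54086 in ORR1B1-int. In ORR1D-int 602 of 744 were, with a median of 0.047. Within lineage A the summed LTR and internal densities were 0.937 ± 0.054 and 0.959 ± 0.030, and within lineage B 1.03 ± 0.090 and 1.13 ± 0.081. By means of these sums the excess of LTR copies did not appear inside A or B. By medians over copies of at least 200 bp, LTR copies and internal parts had 0.186 and 0.144 in A. In B these medians were 0.177 and 0.174. Within lineage D the excess did appear by sums, with 1.07 ± 0.034 for LTR copies and 0.407 ± 0.036 for ORR1D-int (0.727 over autosomal copies). The 4 internal subfamilies belong to A, B and D, and the densest LTRs, those of E to G, have no internal counterpart among them. Open regions overlapped 4.34% of the ORR1B1-int copies and 3.06% of the ORR1B1 LTR copies.

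Libraries differed most in the youngest LTRs. The coefficient of variation of relative density over the 8 libraries was 15.7% for ORR1A0 and 9.22% for ORR1A1, and 2.68% for ORR1D1, the lowest of the 18. For ORR1B1 the relative density was 1.10, 1.08, 1.08 and 1.14 in KO F2, KO M2, WT F2 and WT M1 and 0.932, 0.932, 0.929 and 0.960 in WT M2, KO F1, KO M1 and WT F1. For ORR1C1 it was 1.26, 1.15, 1.26 and 1.33 in the first 4 of these libraries and 1.09, 1.09, 1.11 and 1.08 in the others. Each set of 4 holds 2 libraries of each genotype. ORR1B1-int had another order, with its highest values in KO M1 (1.27) and WT M1 (1.22).

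Summed over all ORR1 LTRs, density fell with annotated length from 100 bp upward. Copies under 100 bp had a relative density of 1.26 ± 0.084, those from 100 bp to under 250 bp 1.36 ± 0.086, those from 250 to under 450 bp 1.21 ± 0.078, those from 450 to under 1000 bp 1.05 ± 0.030 and those of 1000 bp or more 0.855 ± 0.048. The median copy did not follow this order, with 0.148 counts per kb and per M table counts under 100 bp, 0.172 and 0.183 in the next classes, and 0.160 and 0.145 in the longest ones. Nor did each lineage, since B had 1.09 from 100 to under 250 bp and 1.12 from 250 to under 450 bp, and F was densest from 450 to under 1000 bp (1.61 ± 0.172). The longest class overlapped open regions most often (6.83%, against 4.15% from 250 to under 450 bp), but only 0.550% of it lay at least 50% in open regions. Lineage A copies of several segments had a density of 0.793 ± 0.065 and those of 1 segment 1.06 ± 0.069. In lineage F the same values were 1.49 ± 0.108 and 1.48 ± 0.107. These are descriptions of overlapping classes and were not tested.

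The 8 densest ORR1 copies of at least 100 bp reached 125 to 208 times the density of the median ORR1 copy, and 7 of them lay wholly inside an open region. Coordinates are in GRCm39, and no gene is assigned to them. ORR1F at chr7:125138723-125138836 (114 bp) had 4.10, 3.54, 4.88 and 3.07 CPM in KO F1, F2, M1 and M2 and 3.17, 3.43, 4.73 and 4.63 in WT F1, F2, M1 and M2. CPM is counts per M of the scaled library size. ORR1D2 at chr14:119244837-119245038 (202 bp) had 7.26, 6.43, 7.62 and 6.14 CPM in the KO and 5.47, 6.53, 8.39 and 7.71 in the WT libraries, in the same order. Both held counts in all 8 libraries and their KO and WT values overlapped.

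A pair of ORR1D1 copies on chromosome 10, at chr10:22045114-22045272 (159 bp) and chr10:22233389-22233539 (151 bp), came next. They had 2.88 to 5.49 and 2.43 to 4.92 CPM over the 8 libraries, both lowest in WT F1 and highest in WT M1. ORR1G at chr16:22658391-22658526 (136 bp) had 2.05 to 4.04 CPM. The internal parts among the 8 were 3 ORR1B1-int copies. Those at chr11:86473191-86473303 (113 bp) and chr9:65457711-65457872 (162 bp) had 1.82 to 3.76 and 2.42 to 4.34 CPM. The ORR1B1-int copy at chr19:5883541-5883681 (141 bp) overlapped no open region, yet had 2.64, 2.77, 3.91 and 2.35 CPM in the KO and 2.03, 3.0, 3.63 and 3.49 in the WT libraries. A copy inside an open region shares its counts with that region, and this copy does not.

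Open regions that lie over ORR1 were weaker than the rest. Of 185268 open regions, 8572 (4.63%) overlapped an ORR1 copy and 2425 had their centre inside one. In 1822 (0.983%) ORR1 made up at least 50% of the length, and 1766 of these (96.9%) had their centre in ORR1. The median density of these 1822 was 1.90 CPM per kb (quartiles 1.32 and 3.01), against 4.42 (2.54 and 8.89) over all open regions, and their median length was 383.5 bp against 519 bp. Counts in them are split with the ORR1 copies they cover, which lowers their values relative to open regions free of repeats. Among the 1822, the median rose from 1.52 CPM per kb where an A copy made up most of the ORR1 part (185 regions) through 1.76 for B (273), 1.86 for C (285) and 1.83 for D (360) to 2.10 for E (424), 2.11 for F (244) and 2.27 for G (51). The quartiles of the lineages overlapped and this order was not tested.

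Between genotypes, no ORR1 subfamily passed an adjusted p of 0.05 in edgeR's quasi-likelihood test (0 of 18 called, and 0 with an unadjusted p under 0.05). Over all 831 subfamilies tested, the called share was 0% and 1.81% had an unadjusted p under 0.05. The lowest unadjusted p among the 18 was 0.327, for ORR1A1-int. DESeq2 and limma voom with sample weights also called 0 of 18, with 0 unadjusted p under 0.05. All 18 log2 folds (KO over WT) lay above 0, with a median of 0.05, and so did 74.5% of all subfamilies, with a median of 0.05. The sign depended on the tool, on the scaling and on single libraries. With DESeq2 9 of 18 lay above 0 (median 0.00, all subfamilies 0.01). With limma voom 6 of 18 did (median -0.02, all subfamilies 0.01). With scaling factors from open regions only, 18 of 18 lay above 0 (median 0.13, all subfamilies 0.12). With scaling factors from retrotransposon copies only, 5 of 18 lay above 0 (median -0.01), and without the library KO M2, 4 of 18 (median -0.03), where all subfamilies had medians of 0.00 and -0.01. Without the library labelled KO F2, 0 of 18 were called and 15 lay above 0 (median 0.05).

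**Figure D4:**
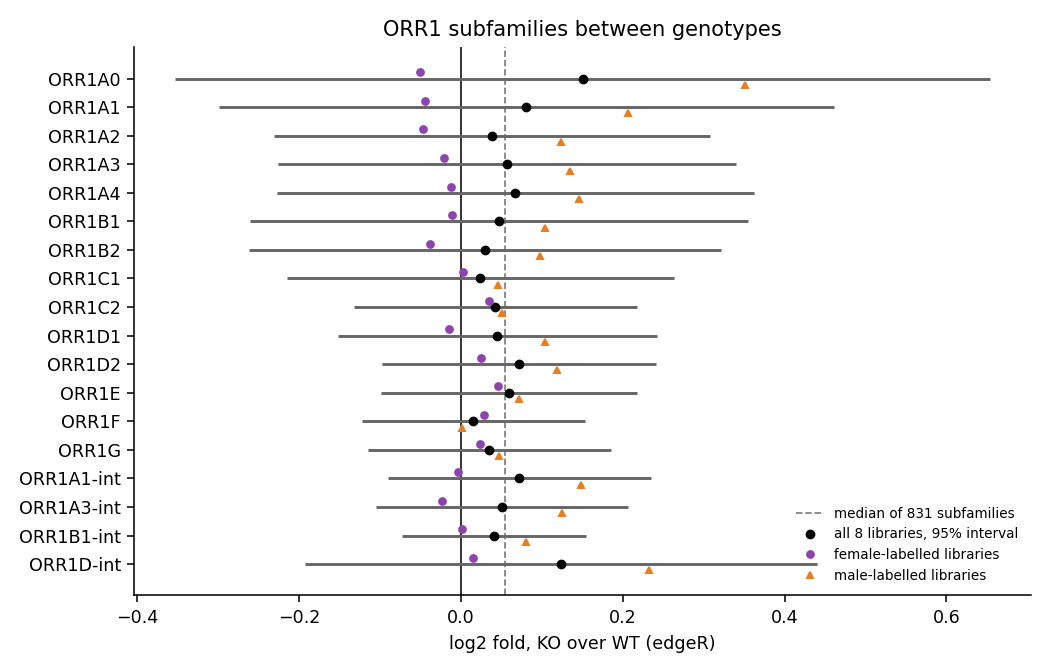
Log2 fold of summed counts, KO over WT, for the 18 ORR1 subfamilies. Black points and lines are the edgeR estimates over all 8 libraries with 95% intervals, purple and orange points the estimates within female-labelled and male-labelled libraries, and the dashed line is the median of all 831 subfamilies. Every interval spans 0.

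Intervals were narrow in the oldest LTRs and in the internal parts of ORR1A3 (1.04-fold, 0.930 to 1.15) and ORR1B1. ORR1F had a mean of 1699 CPM (SD 94, n = 4) over the KO and 1680 CPM (SD 24, n = 4) over the WT libraries, a 1.01-fold ratio with a 95% interval of 0.919 to 1.11. ORR1E had 2182 ± 160 and 2095 ± 41 CPM (1.04-fold, 0.934 to 1.16). ORR1G had 460 ± 33 and 449 ± 6.9 CPM (1.02-fold, 0.924 to 1.14). ORR1B1-int had 1277 ± 35 and 1241 ± 14 CPM (1.03-fold, 0.951 to 1.11). The youngest LTRs left a wide interval, with 244 ± 60 and 223 ± 55 CPM for ORR1A0 (1.11-fold, 0.783 to 1.57) and 408 ± 80 and 388 ± 62 CPM for ORR1A1 (1.06-fold, 0.813 to 1.38). KO and WT libraries overlapped in each of the 18 subfamilies.

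The other subfamilies lay in the same range. ORR1A2, ORR1A3 and ORR1A4 had folds of 1.03, 1.04 and 1.05, ORR1B1 and ORR1B2 1.03 and 1.02, and ORR1C1 and ORR1C2 1.02 and 1.03. ORR1D1 and ORR1D2 had 1.03 and 1.05, and the internal parts ORR1A1-int, ORR1A3-int and ORR1D-int 1.05, 1.04 and 1.09. The log2 fold of ORR1D-int was 0.12 over all copies, 0.04 over autosomal copies and -0.003 without the library KO M2. Within the female-labelled libraries the median log2 fold of the 18 was -0.01 and within the male-labelled ones 0.11. The difference between the sexes, tested as an interaction, was not called for any of the 18 or of all 831 subfamilies (0%), with 0 unadjusted p under 0.05 in either set. The female-labelled set includes the library labelled KO F2.

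As a share of retrotransposon counts, ORR1 took 5.83%, 6.31%, 6.05% and 6.04% in KO F1, F2, M1 and M2 and 5.81%, 6.24%, 6.54% and 5.96% in WT F1, F2, M1 and M2. The KO mean was 6.06% (SD 0.19, n = 4) and the WT mean 6.14% (SD 0.32, n = 4). The difference, KO minus WT, was -0.08 percentage points with a 95% interval of -0.71 to 0.49 (exact two-sided permutation test, p = 0.714, adjusted 0.943 over 10 share tests). The 4 KO values lay within the WT range. Without the library labelled KO F2 the difference was -0.165 points. None of the shares of LTR copies, internal parts or the lineages A to G reached an unadjusted p under 0.05 by the same exact test, with the lowest p of 0.600 for lineage F (0.666% ± 0.043 and 0.688% ± 0.058).

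Of the 206555 ORR1 copies, 34199 (16.6%) held enough counts to be tested one by one, among them 31.3% of ORR1A0 and 2.97% of the short ORR1B1-int copies. The filter is on counts, so it keeps longer as well as denser copies. Tested copies had a median length of 349 bp and a median of 0.449 counts per kb and per M table counts, against 216 bp and 0.145 in the others, and a median tested copy held 10.5 counts per library. With edgeR 0 ORR1 copies passed an adjusted p of 0.05, as did 0% of all 570571 copies. An unadjusted p under 0.05 was found for 1525 ORR1 copies (4.46%), against 3.54% of all copies. Of the 1525, 1097 (71.9%) were higher in KO, against 72.7% of all such copies (2.57% of all tested). That split was 54.8% for ORR1 and 51.8% for all copies without the library KO M2, 54.4% and 64.2% without the library labelled KO F2, and 63.0% and 62.6% with DESeq2. By subfamily the share with an unadjusted p under 0.05 was 1.56% in ORR1A0, 3.06% in ORR1A3, 3.99% in ORR1B1, 6.45% in ORR1D2, 6.36% in ORR1E, 6.33% in ORR1F and 5.58% in ORR1G. These shares were not compared by a test.

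DESeq2 gave an adjusted p to 2422 of the ORR1 copies and called 5, all higher in KO, against 0.0829% of all copies with an adjusted p (42 of 50653, of which 41 were higher in KO). The 5 are described with the edgeR values, where each had an adjusted p of 0.842. ORR1B1 at chr9:113754224-113758669, 4 segments of 417 bp in all, had 1.98, 2.95, 1.77 and 3.17 CPM in KO F1, F2, M1 and M2 and 0.923, 1.09, 0.932 and 0.356 in WT F1, F2, M1 and M2. All KO libraries lay above all WT libraries, and the ratio was 3.05 (log2 1.61, standard error 0.32). It overlapped no open region.

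ORR1G at chr5:43943943-43944161 (219 bp) had 0.660, 1.15, 0.699 and 1.8 CPM in the KO and 0.343, 0.295, 0.299 and 0.263 in the WT libraries, a ratio of 3.51 (log2 1.81, standard error 0.37). ORR1E at chr13:29228629-29228970 (342 bp), wholly inside an open region, had 2.72, 1.28, 2.74 and 1.67 CPM in KO and 1.13, 0.652, 0.482 and 0.634 in WT, a ratio of 2.96. The WT values of ORR1G were close together, and its KO values were highest in KO M2. In ORR1E the highest KO values were those of KO F1 and KO M1.

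The remaining DESeq2 calls were ORR1F at chr1:180088528-180088786 (259 bp, inside an open region) and ORR1C1 at chr16:10814343-10814614 (272 bp, outside open regions). The KO and WT means were 1.05 ± 0.45 and 0.323 ± 0.088 CPM for the ORR1F copy and 1.21 ± 0.44 and 0.426 ± 0.097 CPM for the ORR1C1 copy (SD, n = 4 per genotype), both highest in KO M2. With edgeR, ORR1C1 at chr10:22177398-22177765 (368 bp) was among the 4 higher copies with the lowest p, with 0.733 ± 0.396 CPM in KO and 0.164 ± 0.096 in WT. DESeq2 gave this copy no adjusted p. In all 6 copies the KO and WT libraries did not overlap. The adjusted p of the 5 was 0.0204 to 0.0476 in DESeq2 and at least 0.0883 under each edgeR and limma voom alternative. The copies were picked as the lowest p of 34199, which favours separated groups, so the separation is a description. The share of separated copies among all tested ones is not given here.

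**Figure D5:**
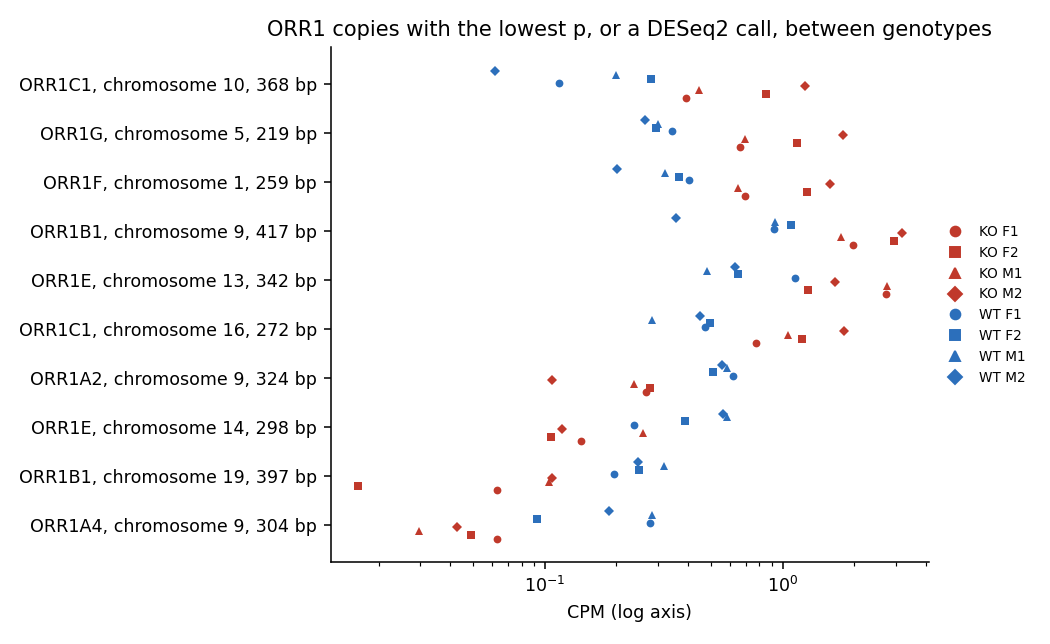
CPM (log axis) of the 10 ORR1 copies with the lowest edgeR p in each direction or a DESeq2 call, by library (red KO, blue WT, symbols for the library numbers). In 9 of the 10 copies all KO points lie on one side of all WT points; in the ORR1E copy on chromosome 14 they overlap. None has an edgeR adjusted p below 0.842. The copies were picked for a low p, which favours separated groups.

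The 4 copies with the lowest p in the other direction had fewer counts. ORR1B1 at chr19:38420310-38420706 had 0.0726 ± 0.0425 CPM in KO and 0.252 ± 0.049 in WT, and ORR1A2 at chr9:116725366-116725689 had 0.223 ± 0.079 and 0.568 ± 0.045. ORR1A4 at chr9:60297916-60298219 had 0.0461 ± 0.0138 and 0.210 ± 0.090 CPM, from a median of 5 counts per library. ORR1E at chr14:104132542-104132839 had 0.156 ± 0.071 and 0.443 ± 0.163 CPM. Their edgeR adjusted p was 1. DESeq2 gave none of the 4 an adjusted p, so it could not call them. The log2 folds of all 10 copies kept their sign in each of the 8 fits without 1 library. Where KO and WT libraries do not overlap, leaving out a library can hardly change the sign, so this is a description.

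Among open regions, edgeR called 0 of the 8572 over ORR1 and 0% of all 185268. An unadjusted p under 0.05 was found for 888 of the 8572 (10.4%) and for 197 of the 1822 that are at least 50% ORR1 (10.8%), against 9.88% of all open regions. Those higher in KO were 628 of the 8572 (7.33%) and 162 of the 1822 (8.89%), against 6.42% of all open regions. Without the library KO M2 the counts with an unadjusted p under 0.05 fell from 888 and 197 to 436 and 88 (5.09% and 4.83%, all regions 5.2%). Without WT M2 they were 574 and 120 (6.70% and 6.59%, all regions 6.58%), and without WT M1 606 and 148 (7.07% and 8.12%, all regions 6.46%). Leaving out the library labelled KO F2 gave 1009 and 175 (11.8% and 9.60%, all regions 12.1%). Leaving out KO F1 gave 1046 and 249 (12.2% and 13.7%, all 11.3%), and WT F1 1045 and 192 (12.2% and 10.5%, all 12.3%). Leaving out KO M1 gave 769 and 197 (8.97% and 10.8%, all 8.09%), and WT F2 743 and 168 (8.67% and 9.22%, all 7.99%). DESeq2 called 113 of 7328 regions over ORR1 that had an adjusted p (1.54%), 102 of them higher in KO, and 16 of 1114 that are at least 50% ORR1 (1.44%), against 1.6% of all. Most calls over all open regions had the same direction, with 2306 of 2739 higher in KO. The median log2 fold was 0.01 over ORR1, 0.04 where ORR1 made up at least 50%, and 0.00 over all open regions. Counted over both directions, the shares of either tool lay near the background.

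The 3 open regions of at least 50% ORR1 with the lowest p higher in KO had low counts. The region at chr1:173257953-173258239, 89.5% ORR1G, had 0.559, 0.751, 0.445 and 0.825 CPM in KO F1, F2, M1 and M2 and 0.288, 0.200, 0.101 and 0.173 in WT F1, F2, M1 and M2 (3.47-fold). The region at chr14:103144973-103145269, led by ORR1F, had 1.21 ± 0.55 and 0.310 ± 0.100 CPM (3.85-fold), with its highest value in KO M2. The region at chr17:71796703-71797077, 96.0% ORR1 led by ORR1B1, had 1.27 ± 0.57 and 0.345 ± 0.077 CPM (3.70-fold). Each had an edgeR adjusted p of 0.323, and the regions led by ORR1F and ORR1B1 passed in DESeq2 (adjusted p = 0.015 and 0.0171). DESeq2 gave the ORR1G region no adjusted p.

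Of those lower in KO, the region at chr10:117164815-117165539 lies 99.7% in ORR1 and was led by ORR1A2. It had 1.07, 1.63, 1.8 and 1.47 CPM in the KO and 2.60, 2.42, 2.46 and 3.27 in the WT libraries (0.557-fold, edgeR adjusted p = 0.323). The region at chr6:38745881-38746298, led by ORR1D2, had 0.993 ± 0.424 and 1.99 ± 0.58 CPM (0.492-fold). The region at chr1:176836235-176836866, led by ORR1B1, was the strongest of the 6, with 5.37 ± 0.66 and 8.0 ± 1.32 CPM (0.677-fold). Neither passed in edgeR (adjusted p = 0.334 and 0.335), and none of these 3 passed in DESeq2.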

How the data were processed

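The deposited table holds estimated counts made by the authors with featureCounts 2.0.3, per the file headers, over peaks and annotated repeats together. Only pairs with both ends aligned were used, reads were counted at their 5' end, and a read in several regions was split equally among them, so a copy inside an open region shares its counts with it. The recorded command has no option that counts reads with several alignments. Tools named in the submitters' processing notes are Bowtie2, Trim Galore, Picard, SAMtools, bedtools, MACS2 and featureCounts, with the build GRCm39. Peak calling settings, the repeat annotation's version and any shift of cut positions were not given in the sources used here.

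Segments of a copy were joined for its length and overlaps. Counts were rounded to whole numbers and tested with edgeR 4.0.16 (R 4.3.3; quasi-likelihood, robust, sex label as covariate, TMM factors from open regions and tested copies together, library size the table total; for open regions, factors and totals from open regions). filterByExpr kept 570571 copies and all 185268 open regions, and subfamilies needed a mean of 100 counts (831 of 871). P-values were adjusted by Benjamini-Hochberg over each whole table, threshold 0.05. Shares were tested over the 70 assignments of 4 against 4 (smallest p 0.0286) and densities by 256 sign flips. Mean densities per copy used table totals without TMM. The fits were tested on simulated data. Alternatives were voom with sample weights (limma 3.58.1), DESeq2 1.42.0, other scaling, filters, denominators and copy sets, a replicate block and each library left out.

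The members and lists were chosen with earlier results of these data known. Named by rule were all 18 subfamilies, the 8 densest copies, the 4 copies with the lowest p per direction, copies called by DESeq2 (edgeR calling fewer than 20), and 3 open regions per direction. P-values measure the spread between mice. Motifs and sequences were not analysed here.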

Additional observations from a re-analysis of the deposited data

Results flagged for a closer look

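In 56 groups of 4 libraries (CPM of the 18 subfamilies and 10 shares of retrotransposon counts, each by genotype), 2 held a library far from its group by Dixon's criterion. Chance does this in about 1 of 20 groups. ORR1D-int had 52.2 CPM in KO M2, against 38.0 to 40.4 CPM in the other 3 KO libraries. ORR1F had 1645 CPM in WT F1, against 1687 to 1695 CPM in the other 3 WT libraries. KO M2 also had the most ORR1 counts on Y (8402), where 48.7% of the ORR1D-int length lies, and the part of Y in this value was not tested.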

How the results depend on the processing

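Counts of calls between genotypes stayed at 0 of 18 subfamilies under every alternative run, among them the replicate block, and at 0 copies and 0 open regions except with DESeq2, which called 5 ORR1 copies and 113 open regions over ORR1. Same-numbered KO and WT libraries correlated at 0.59 (F1), 0.61 (F2), -0.29 (M1) and -0.45 (M2). Differently numbered ones ran from -0.62 (KO F1 with WT F2) to 0.57 (KO F2 with WT M1). Whether the numbers pair the samples cannot be told from these mixed values. The replicate block left 0 called subfamilies, 0 copies and 0 open regions. Under it 1959 ORR1 copies (5.73%, all copies 4.83%) had an unadjusted p under 0.05, in place of 1525 (4.46%, all 3.54%). The limma voom fit of open regions and the autosomal densities were added after seeing the data. The share of ORR1, KO minus WT (-0.08 points), was 0.0828 with all table counts as denominator and -0.191 to 0.0527 without single libraries, positive only without WT M1 (0.0527). Of the 17 neighbouring densities, 3 passed, 0 outside open regions (2 at the smallest p, where 3 are needed for any to pass) and 7 with autosomal copies, where ORR1B2 over ORR1B1 reversed to -0.0184. The log2 ratio of E to G over A LTRs was 0.0585 and that of LTR over internal parts 0.34 by medians over copies of at least 200 bp. Without single libraries the first ran from 0.62 to 0.69 and the second from 0.10 to 0.14. The overlap with open regions was 4.26% by 1 base and 2.66% by 50% of the copy. Of the 18 subfamilies, 9 fell below 0 with DESeq2, 12 with limma voom, 13 with scaling from retrotransposon copies, 3 without KO F2 or WT M2 and 14 without KO M2. Depth limits single copies, of which a median tested one held 10.5 counts per library.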
